A study of Mus musculus with 12 samples.

Results

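Hepcidin, the genes of iron transport and the genes of the bone morphogenetic protein (BMP) and SMAD signalling route that controls hepcidin were followed over 1 day in mouse liver. The 10 genes were Hamp, Hamp2, Tfrc, Slc40a1, Bmp6, Id1, Smad6, Smad7, Smad9 and Tmprss6, chosen by symbol from the 22618 genes of the exon count table. All 10 were in the table and passed the filter on low counts, which left 17142 genes to test. The livers came from male Cry1/2 double-knockout mice on the C57BL/6j strain, 12 to 16 weeks old, fed at night and raised with a conventional gut flora. Every library therefore carries the same loss of both cryptochromes, the repressors of the circadian clock, and the same feeding schedule, and every comparison is between times of day. Livers were taken at zeitgeber time (ZT) 2, 6, 10, 14, 18 and 22, with 2 libraries at each of the 6 time points and 12 libraries in all. ZT14, ZT18 and ZT22 are called night here and ZT02, ZT06 and ZT10 day, since ZT counts hours from lights-on by convention; no source used here gives the light schedule. Wild-type mice were not analysed here. The libraries are of whole liver, a mixture of cell types. No label says whether replicates 1 and 2 are separate animals, and the spread that the p-values rest on may therefore be technical.

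Hepcidin is a small peptide hormone that hepatocytes secrete. It binds ferroportin, the iron exporter encoded by Slc40a1, and causes its degradation, so that less iron leaves macrophages, enterocytes and hepatocytes. Liver endothelial cells release BMP6 when iron is plentiful; BMP6 binds receptors on hepatocytes, the receptors phosphorylate SMAD proteins, and these enter the nucleus with SMAD4 and switch on hepcidin together with Id1, Smad6, Smad7 and Atoh8. SMAD6 and SMAD7 are inhibitors of the same route, and the membrane protease TMPRSS6 damps it by cutting the coreceptor hemojuvelin. Interleukin 6, acting through STAT3, is the other well known inducer of hepcidin. Transferrin receptor 1, encoded by Tfrc, takes up transferrin-bound iron, and both Tfrc and Slc40a1 mRNAs carry stem-loops that iron regulatory proteins bind.

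In these livers Smad9 and Smad7 were lower at night than by day, at 0.358 and 0.649 times the day level. The call of Smad7 was close to the threshold and did not hold in most alternative analyses. No other of the 10 genes passed the test of night against day. Hamp, Hamp2, Tfrc, Id1 and Smad9 differed between single libraries by 6.11- to 10.6-fold. For Hamp, Tfrc and Id1 much of this lay between the 2 libraries of a time point, at several time points. Replicates of Hamp2 and Smad9 differed most at ZT14 (3.38- and 3.44-fold), and by at most 1.81- and 1.69-fold at other times. The night and day libraries of Smad9 did not overlap. Tmprss6 stayed within 1.09-fold over all 12 libraries. Across libraries Id1 rose and fell with Hamp and with Smad7. Both relations lost their call without ZT10 replicate 1 or without ZT22 replicate 1.

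Promoters are shown for the hepcidin pair, which lie near each other on chromosome 7, and for Smad9, the gene with the clearest difference by time of day. The sequences are RefSeq's on GRCm38.p6, they end 6 bases before the RefSeq start, and they run 5′ to 3′ on the gene's own strand. Capitals mark GGCGCC, the core of BMP-responsive elements, or the bases aligned to it, and TTCNNNGAA, the form of a STAT element. Hamp lies on the minus strand at chr7:30944035-30944274, Hamp2 on the minus strand at chr7:30924187-30924426 and Smad9 on the plus strand at chr3:54755337-54755576.
Hamp: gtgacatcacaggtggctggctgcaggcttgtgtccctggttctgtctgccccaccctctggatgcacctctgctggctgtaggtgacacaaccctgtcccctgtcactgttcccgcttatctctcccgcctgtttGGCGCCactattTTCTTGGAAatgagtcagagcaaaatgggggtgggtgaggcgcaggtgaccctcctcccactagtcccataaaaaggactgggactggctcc
Hamp2: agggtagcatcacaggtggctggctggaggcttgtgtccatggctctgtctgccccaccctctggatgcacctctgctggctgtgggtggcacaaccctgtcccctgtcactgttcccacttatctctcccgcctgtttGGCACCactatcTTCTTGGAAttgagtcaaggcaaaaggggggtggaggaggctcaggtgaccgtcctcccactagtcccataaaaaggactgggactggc
Smad9: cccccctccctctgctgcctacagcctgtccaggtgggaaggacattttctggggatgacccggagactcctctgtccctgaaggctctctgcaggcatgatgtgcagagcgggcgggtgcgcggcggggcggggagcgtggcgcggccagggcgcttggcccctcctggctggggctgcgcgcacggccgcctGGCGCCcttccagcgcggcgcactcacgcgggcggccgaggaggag

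The 2 hepcidin promoters were nearly the same: over the full 250-base windows, 227 of 247 aligned bases (91.9%) were identical. Hamp held GGCGCC 109 bases and TTCNNNGAA 97 bases before its start. Hamp2 held TTCNNNGAA 94 bases before its start, but in the aligned GGCGCC it carried the substitution G4A, counted from 1 at the 5′ end of the element with the base of Hamp first. Smad9 held GGCGCC 51 bases before its start. Both strands were searched, and the 2 patterns share no letters in these windows. Of 32851 RefSeq promoter windows of this length, 9.59% held GGCGCC and 7.02% held TTCNNNGAA. Tfrc held GGCGCC in 1 of its 2 windows and Bmp6 held CACGTG, the E-box form that CLOCK:BMAL1 binds, which 6.02% of windows held. Smad6 held none of these patterns. Smad7, Slc40a1, Id1 and Tmprss6 had no window among these promoters and were not searched. A match is a description of letters and not evidence of binding.

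The stem-loops of the iron carriers are shown because they are what iron regulatory proteins bind. They were searched in the mature transcripts, on the sense strand, as a C, any 5 bases, the loop CAGTGN and 5 bases that pair with those before the loop, G-U pairs allowed. The loop is in capitals. Numbers and positions below are of the transcripts Slc40a1-201 and Tfrc-201. Such a stem-loop was found in 3 of 8 annotated transcripts of Slc40a1 and in 2 of 7 of Tfrc. Slc40a1 had 1, in the 5′ UTR in exon 1, at chr1:45925467-45925491 on the minus strand of GRCm38. Tfrc had 4, all in the 3′ UTR in exon 19, on the plus strand at chr16:32631221-32631245, chr16:32631600-32631624, chr16:32631665-32631689 and chr16:32631712-32631736.
Slc40a1: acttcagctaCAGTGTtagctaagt
Tfrc 1: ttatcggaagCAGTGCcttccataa
Tfrc 2: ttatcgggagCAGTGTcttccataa
Tfrc 3: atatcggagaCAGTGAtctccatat
Tfrc 4: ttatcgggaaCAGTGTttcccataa

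No other of the 10 genes had such a stem-loop, and 1.34% of 21901 protein-coding genes did. In Slc40a1 it stands before the coding sequence, the place where a bound protein blocks translation. In Tfrc the stem-loops stand after it, the place where a bound protein keeps the mRNA from being cut.

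Levels below are CPM, the usual scaling of a gene's count by the library total, here with that total corrected for composition by TMM factors. Library totals were between 34715506 and 46074052 counts. Differences between replicates at ZT02 correlated with those at ZT06 more than at any other pair of times (r = 0.269, over genes), so each count of calls was also made without ZT02 replicate 1 and ZT06 replicate 2, and without ZT02 replicate 2 and ZT06 replicate 1. A gene was called where edgeR's quasi-likelihood test gave a Benjamini-Hochberg adjusted p under 0.05. Over all tested genes 12% were called for a 24 h rhythm, 4.82% for any difference between the 6 time points and 9.7% for night against day, of which 4.8% were higher and 4.89% lower at night. Of the 10 genes, 1 was called for a 24 h rhythm, which is near that background, and none for any time difference. In that last test 4 of the 10 had an unadjusted p under 0.05, against 4248 of all 17142 tested genes. DESeq2 called 4 of the 10 and 2532 of all genes, and limma-voom called 0 and 713. For night against day 2 were called, both lower at night.

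**Figure D1:**
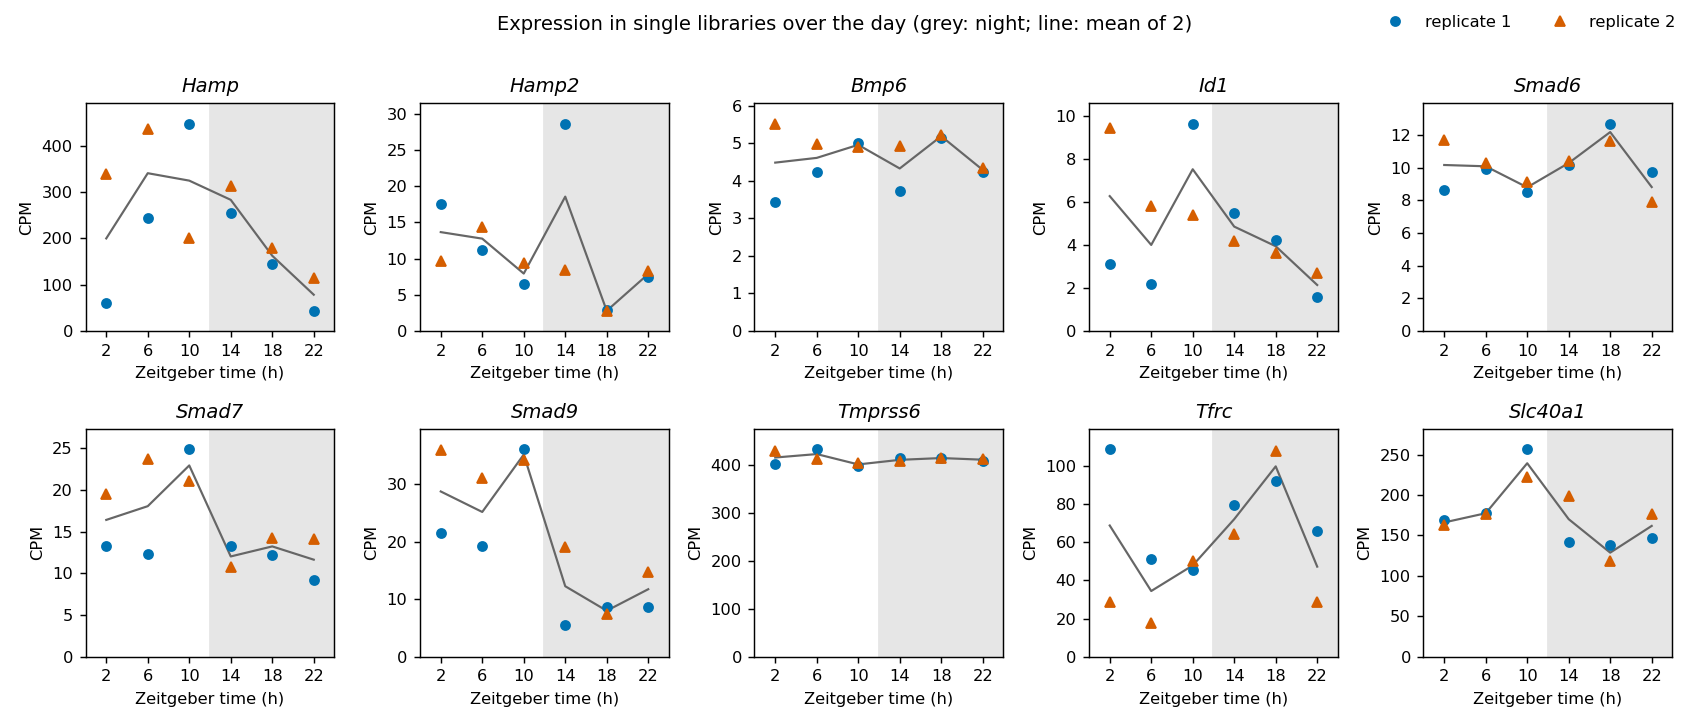
CPM of each of the 10 genes (linear axis from 0) against zeitgeber time in hours; each point is 1 library, with replicates 1 and 2 drawn apart, the line joins the means of the 2 libraries, and night is shaded. The night libraries of Smad9 lie below all of its day libraries, the 2 libraries of Hamp at ZT02 lie 5.65-fold apart, and Tmprss6 is flat.

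Bmp6, the ligand, was low and steady. It lay between 3.45 CPM (ZT02 replicate 1) and 5.52 CPM (ZT02 replicate 2), with a median of 4.91 CPM, so its extremes were the 2 libraries of 1 time point. Its night minus day difference was -0.03 ± 0.13 (log2, SE; edgeR adjusted p = 0.921), and over the alternative analyses that value lay between -0.13 and 0.10, to either side of 0. Summed markers of sinusoidal endothelial cells, the liver's main source of BMP6, were also highest in ZT02 replicate 2 (798 CPM for 12 markers, against 595 to 705 CPM in the other libraries). The lowest sum was in ZT18 replicate 2, where Bmp6 was 5.23 CPM. ZT02 replicate 1, lowest in Bmp6, had a sum of 670 CPM. The part of these markers in the level of Bmp6 was not tested. Fewer cells of a type and less RNA per cell cannot be told apart in whole liver. The exons of Bmp6 overlap those of Txndc5 on the opposite strand over 224 bases, and Txndc5 had a median of 8209 counts against 139 to 215 for Bmp6. The sources used here do not give the strand setting of the counting, so the level of Bmp6 is uncertain.

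Tmprss6, the protease that restrains the route, was the steadiest gene of the group. It lay between 398 and 432 CPM with a median of 413 CPM. Night libraries averaged 412 ± 3.00 CPM and day libraries 413 ± 14.2 CPM (SD, 6 libraries each). The fitted 24 h range was 1.02-fold, with a 95% interval up to 1.07-fold (edgeR adjusted p = 0.941). A range here is the fitted peak over the fitted trough, from a least-squares fit of a 24 h cosine to log2 CPM, and its interval is not adjusted for the number of genes.

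Smad9, a receptor-activated SMAD of the BMP branch also called SMAD8, was lower at night. By day it read 21.6 and 35.9 CPM at ZT02, 19.3 and 31.2 CPM at ZT06, and 36.1 and 34.3 CPM at ZT10. At night it read 5.53 and 19.0 CPM at ZT14, 8.67 and 7.37 CPM at ZT18, and 8.75 and 14.8 CPM at ZT22. The 2 groups did not overlap, although the highest night library, ZT14 replicate 2, came close to the lowest day library. Night libraries averaged 10.7 ± 5.14 CPM and day libraries 29.7 ± 7.45 CPM (SD). Smad9 fell by 1.48 ± 0.27 at night on the log2 scale (SE; edgeR adjusted p = 0.0099), a night level of 0.358 times the day level. The call held in each of 20 alternative analyses, with adjusted p up to 0.0422.

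Smad9 was also the 1 gene of the 10 called for a 24 h rhythm. Its fitted range was 4.28-fold (95% interval 1.90 to 9.64) with a peak at ZT6.20 ± 0.94 h (SE; edgeR adjusted p = 0.0206). Leaving out 1 library at ZT18 ended that call, with adjusted p of 0.0556 without replicate 1 and 0.0584 without replicate 2. It was also lost without ZT02 replicate 1 and ZT06 replicate 2 together (0.0622). The test of any time difference gave Smad9 an adjusted p of 0.0686, which passed without either library of ZT14 (0.0446 without replicate 1 and 0.0220 without replicate 2).

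Smad7, the inhibitory SMAD that blocks the activated receptors, was the other called gene. By day it lay between 12.3 CPM (ZT06 replicate 1) and 24.8 CPM (ZT10 replicate 1) with a median of 20.3 CPM. At night it lay between 9.16 CPM (ZT22 replicate 1) and 14.3 CPM (ZT18 replicate 2) with a median of 12.7 CPM. The groups overlapped: 4 of 6 day libraries stood above every night library, and ZT02 replicate 1 and ZT06 replicate 1 did not. Smad7 fell by 0.62 ± 0.17 at night on the log2 scale (SE; edgeR adjusted p = 0.0471). That call stood close to the threshold and was lost in 12 of 20 alternatives, with log2 differences between -0.76 and -0.44 and adjusted p up to 0.133. It was lost without either library of ZT10, ZT14 or ZT18, without replicate 2 of ZT02 or ZT06, and without replicate 1 of ZT22, as well as with library totals alone (0.0621) and in limma-voom (0.0579). The 24 h rhythm of Smad7 (adjusted p = 0.0927) passed in DESeq2 (0.0315), without ZT06 replicate 1 (0.0263) and without ZT02 replicate 2 and ZT06 replicate 1 together (0.0463).

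Smad6, the other inhibitory SMAD, did not move with Smad7. It lay between 7.87 CPM (ZT22 replicate 2) and 12.7 CPM (ZT18 replicate 1) with a median of 10.03 CPM. Its night minus day difference was 0.10 ± 0.09 (log2, SE; edgeR adjusted p = 0.539). Across the 12 libraries Smad6 and Smad7 gave r = -0.174 (permutation p = 0.584) and rho = -0.231 (permutation p = 0.469).

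Id1 encodes an inhibitor of helix-loop-helix transcription factors and is a common readout of BMP-SMAD signalling. It was read from few counts, 60 to 384 a library, and gave 3.10 and 9.42 CPM at ZT02, 2.17 and 5.82 CPM at ZT06, and 9.63 and 5.39 CPM at ZT10. At night it gave 5.50 and 4.19 CPM at ZT14, 4.23 and 3.64 CPM at ZT18, and 1.57 and 2.70 CPM at ZT22. The 2 libraries of ZT02 differed 3.04-fold and those of ZT06 2.68-fold, so 2 day libraries lay below most night libraries. Its night minus day difference was -0.73 ± 0.31 (log2, SE), with an unadjusted p of 0.0404 and an edgeR adjusted p of 0.166. The 24 h rhythm of Id1 (adjusted p = 0.317) passed without ZT02 replicate 2 and ZT06 replicate 1 together (0.0237), the libraries with the highest and the lowest level of those times.

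Hamp, the hepcidin gene, was abundant and uneven. By day it read 60.1 and 339 CPM at ZT02, 245 and 436 CPM at ZT06, and 447 and 201 CPM at ZT10. At night it read 254 and 312 CPM at ZT14, 145 and 180 CPM at ZT18, and 42.2 and 114 CPM at ZT22. The lowest library of all was ZT22 replicate 1 and the highest ZT10 replicate 1, 10.6-fold apart, and the night and day ranges overlapped over most of their width. The 2 libraries of ZT02 alone stood 5.65-fold apart. Night minus day was -0.87 ± 0.39 (log2, SE; edgeR adjusted p = 0.185), and the fitted 24 h range was 4.21-fold (95% interval 1.45 to 12.2) with its peak at ZT9.96 ± 1.25 h (SE; adjusted p = 0.0910).

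In the fit of time alone to all 12 libraries neither test of Hamp passed the threshold, and leaving out 1 library could change that. Without ZT02 replicate 1, the low day library, the night minus day difference passed (adjusted p = 0.0406), and without ZT02 replicate 2 the 24 h rhythm passed (0.0333). The rhythm also passed without ZT02 replicate 2 and ZT06 replicate 1 together (0.0441).

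Hamp2, the second hepcidin gene of the mouse, followed no such course. It lay between 2.75 CPM (ZT18 replicate 2) and 28.7 CPM (ZT14 replicate 1) with a median of 8.95 CPM. Both libraries of ZT18 were low, at 2.84 and 2.75 CPM, below every other library. ZT14 replicate 1 was 3.38-fold above its replicate. Night minus day was -0.59 ± 0.27 (log2, SE; edgeR adjusted p = 0.188), and the smallest adjusted p of its 3 tests was 0.0576, for any time difference. That test passed in DESeq2 (0.0036) and with no filter on low counts (0.0400). Without ZT14 replicate 1 all 3 tests passed, with adjusted p of 0.0365 for the rhythm, 0.0379 for any time difference and 0.0214 for night against day. Without ZT14 replicate 2 the test of any time difference passed as well (0.0154).

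The balance of the 2 hepcidin genes varied between libraries. Hamp2 made up 1.42% (ZT10 replicate 1) to 22.7% (ZT02 replicate 1) of the CPM of both genes. The largest shares were in libraries where Hamp was low, ZT02 replicate 1 and ZT22 replicate 1 (15.0%), and in ZT14 replicate 1 (10.1%), where Hamp2 was high. The mature transcripts are alike in part: 60 of 361 windows of 50 bases in Hamp (16.6%) were found unchanged in Hamp2, and 0 of 311 windows of 100 bases. The sources used here do not say how reads that fit both genes were counted, so the lower gene's level is uncertain. Exons of Hamp2 also overlap 89 bases of the noncoding gene Gm44662 on the opposite strand. Across libraries Hamp and Hamp2 gave r = 0.080 (permutation p = 0.807) and rho = 0.196 (permutation p = 0.539).

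Slc40a1, the gene of ferroportin, was among the steadier genes. It read 169 and 163 CPM at ZT02, 178 and 177 CPM at ZT06, and 256 and 222 CPM at ZT10. At night it read 141 and 199 CPM at ZT14, 139 and 119 CPM at ZT18, and 147 and 177 CPM at ZT22. Both libraries of ZT10 stood above all others, and 4 of 6 night libraries stood below all day libraries. Night minus day was -0.33 ± 0.10 (log2, SE; edgeR adjusted p = 0.0522), just short of the threshold. It passed in 4 of 20 alternatives: DESeq2 (0.0144), limma-voom (0.0469), no filter on low counts (0.0481) and without ZT14 replicate 2 (0.0155). The 24 h range was 1.51-fold (95% interval 1.12 to 2.05; adjusted p = 0.0674), and the rhythm passed in DESeq2 (0.0246) and without ZT22 replicate 2 (0.0389).

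Tfrc, the gene of transferrin receptor 1, read 109 and 28.9 CPM at ZT02, 51.1 and 17.8 CPM at ZT06, and 45.5 and 50.2 CPM at ZT10. At night it read 79.7 and 64.4 CPM at ZT14, 91.9 and 107 CPM at ZT18, and 65.8 and 28.6 CPM at ZT22. ZT18 was high in both libraries, while ZT02, ZT06 and ZT22 each had 1 library at least 2.30 times the other. Night minus day was 0.53 ± 0.33 (log2, SE; edgeR adjusted p = 0.348). Without ZT02 replicate 1, the highest library, the 24 h rhythm passed (adjusted p = 0.0448). Red cell precursors also express Tfrc, and 10 erythroid markers summed to 122 to 382 CPM by day and 119 to 328 CPM at night. Their sum was highest in ZT02 replicate 1, where Tfrc was highest, but lowest in ZT18 replicate 1, where Tfrc was 91.9 CPM. Among these markers the globin gene Hbb-b1 lay between 23.0 and 184 CPM, Hba-a1 between 7.32 and 57.3 CPM and Alas2 between 57.2 and 110 CPM, while Epb4.2 and Ermap were at 0 in some libraries. Their part in the level of Tfrc was not tested.

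**Figure D2:**
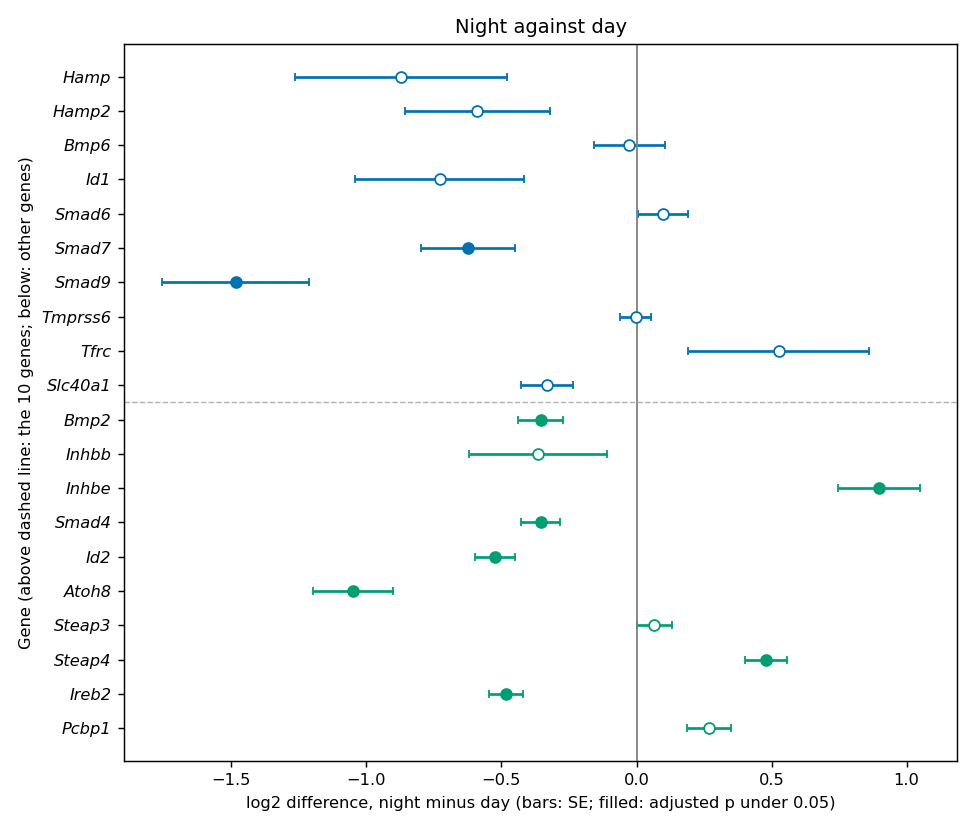
Night minus day difference (log2 fold change from edgeR, bars of 1 SE) of the 10 genes, above the dashed line, and of other genes of the same pathways, below it; filled points had an adjusted p under 0.05. Of the 10 genes Smad9 at -1.48 and Smad7 at -0.62 are filled, and Tfrc and Smad6 lie to the right of 0.

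The plot of night minus day sets these values side by side. The median over the 10 genes was -0.46, against 0.01 over all 17142 tested genes, and 8 of the 10 lay below 0 against 8357 of all genes. The values of Bmp6 and Tmprss6 were below 0 by less than their SE, and with library totals alone both turned to above 0, which leaves 6 of 10 below it. The median fitted 24 h range was 1.93-fold for the 10 genes and 1.31-fold for all genes (edgeR coefficients). A fitted range cannot be below 1 and also grows with the spread between libraries, so it does not measure rhythm alone. Hamp2, Tfrc and Id1 had ranges of 2.08-, 2.07- and 2.09-fold without a called rhythm (edgeR adjusted p = 0.539, 0.296 and 0.317). With library totals alone the night calls over all genes were 1077 higher and 624 lower, in place of 823 and 839.

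Levels of different genes were compared per length, as CPM per kilobase of annotated exon. Hamp was the highest at 564 ± 327 (SD, 12 libraries), followed by Tmprss6 at 123 ± 2.92 and Slc40a1 at 19.3 ± 4.24. Hamp2 stood at 18.2 ± 12.1, Tfrc at 9.97 ± 4.91, Id1 at 4.12 ± 2.22 and Smad9 at 3.77 ± 2.17 CPM per kilobase. Smad7 at 3.47 ± 1.15, Smad6 at 3.13 ± 0.45 and Bmp6 at 1.19 ± 0.16 CPM per kilobase were the lowest. Of the 9 steps in this order, those between Tmprss6 and Slc40a1 and between Smad6 and Bmp6 held in all 12 libraries. Hamp stood above Tmprss6 in 11 of 12, and Id1 above Smad9 in 6 of 12, so most neighbours were not set apart beyond their spread.

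Libraries of 1 time point differed together in several of these genes. At ZT02, ZT06 and ZT22, replicate 2 had more Hamp, Id1 and Smad7 than replicate 1, and less Tfrc. At ZT10 the order of all 4 was the other way round. At ZT14 and ZT18 the replicates were closer, within 0.39 (log2) for each of these 4 genes. The largest such difference was that of Hamp at ZT02, at 2.50 on the log2 scale, and that of Tfrc in the same libraries was -1.91.

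**Figure D3:**
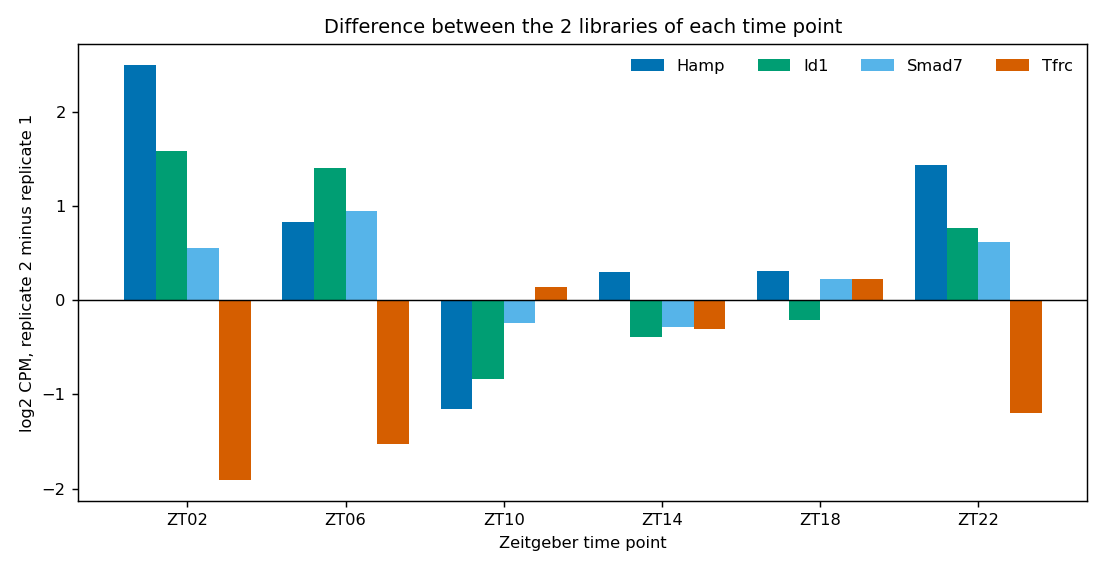
Difference between replicate 2 and replicate 1 (log2 CPM) at each zeitgeber time point for Hamp, Id1, Smad7 and Tfrc; each bar is 1 gene at 1 time point. Bars of Hamp, Id1 and Smad7 point the same way at ZT02, ZT06, ZT10 and ZT22, and those of Tfrc point the other way there.

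Correlations were computed for 12 pairs of these genes over the 12 libraries, on log2 CPM with a prior count of 2. Permutation p-values were adjusted over the 12 pairs. The permutation shuffled all 12 libraries freely and so treated libraries of 1 time point as independent. The p-values therefore go with a description of courses that share time points. Hamp and Id1 rose and fell together: r = 0.767 (permutation p = 0.0034, adjusted 0.0206) and rho = 0.811 (permutation p = 0.0022, adjusted 0.0262). Without ZT02 replicate 1 and ZT22 replicate 1, the libraries farthest from the median of Hamp, r was 0.659. It was 0.750 over replicate 1 libraries and 0.752 over replicate 2 libraries. Around the means of the 6 time points r was 0.886. The replicates differed in the same direction for both genes at 4 of 6 time points, and in opposite directions at ZT14 and ZT18.

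Id1 and Smad7 gave r = 0.790 (permutation p = 0.0023, adjusted 0.0206) but rho = 0.685 (permutation p = 0.0170, adjusted 0.102). Without ZT10 replicate 1 and ZT22 replicate 1, the libraries farthest from the median of Id1, r was 0.608, and around the time means it was 0.904. Both relations lost their call without ZT10 replicate 1 (adjusted p = 0.0689 for each) or without ZT22 replicate 1 (0.196 for Hamp with Id1 and 0.174 for Id1 with Smad7), so they rest in part on those libraries. Hamp and Smad7 gave r = 0.656 (permutation p = 0.0201, adjusted 0.0805) and rho = 0.559 (permutation p = 0.0626, adjusted 0.181). The Pearson relation passed without ZT14 replicate 2 (adjusted p = 0.0175).

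Hamp and Bmp6, the hormone and the ligand that induces it, gave r = 0.550 (permutation p = 0.0620, adjusted 0.186) and rho = 0.469 (permutation p = 0.127). The library with more Hamp had more Bmp6 at 6 of 6 time points, by as little as 0.02 (log2) at ZT18, and r around the time means was 0.786. Without ZT02 replicate 1 and ZT22 replicate 1, r was 0.208, so this relation rests on those libraries. Id1 and Bmp6 gave r = 0.50 (adjusted permutation p = 0.237). The pairs of Hamp with Smad9 (r = 0.439), Smad6 (0.207) and Tmprss6 (0.191) and of Tfrc with Slc40a1 (-0.429) had adjusted permutation p of 0.282 or more.

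A further 3 pairs were picked after their values were seen and carry no p. Hamp and Tfrc gave r = -0.477 over the 12 libraries and -0.891 around the time means, with opposite directions at 5 of 6 time points. Smad7 and Smad9 gave r = 0.707 over the libraries and 0.335 around the time means. Hamp and Slc40a1 gave r = 0.40. All genes of a library share its depth and scaling.

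**Figure D4:**
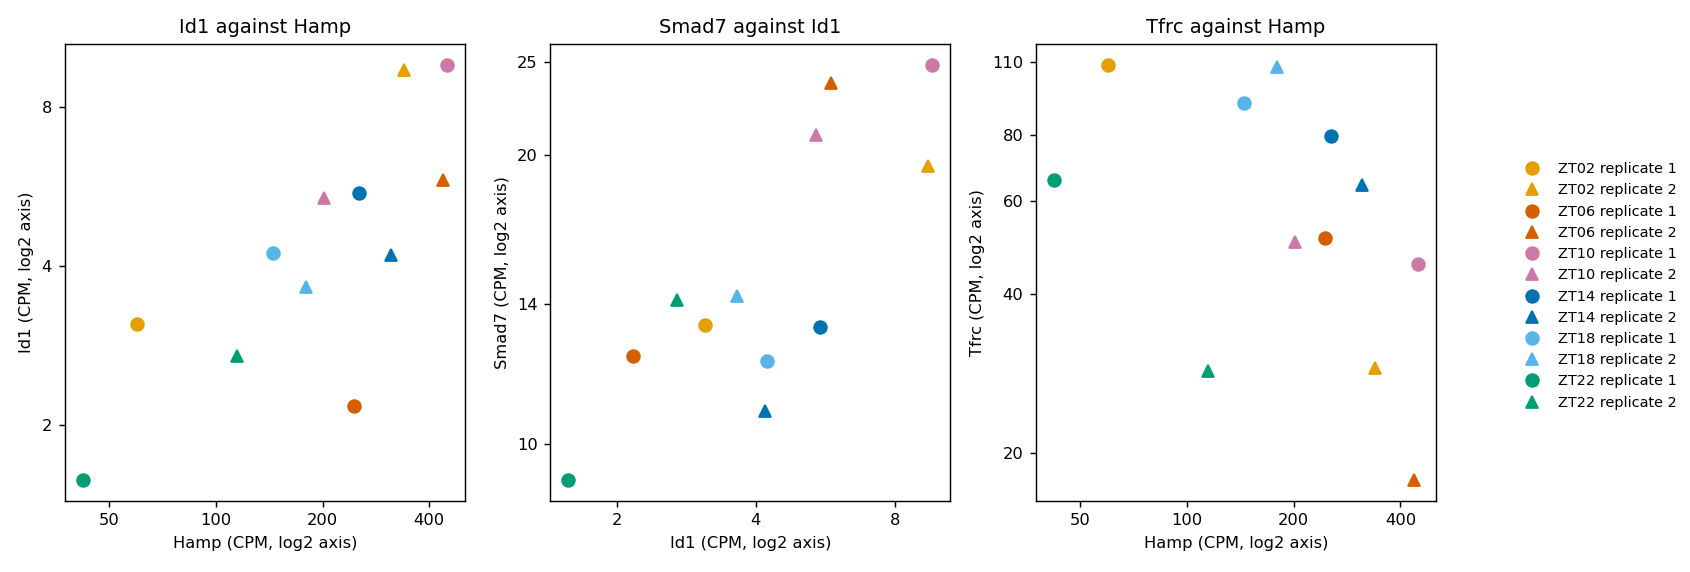
Levels of 2 genes against each other in the 12 libraries (CPM on log2 axes): Id1 against Hamp, Smad7 against Id1, and Tfrc against Hamp; colours are time points, circles replicate 1 and triangles replicate 2. ZT22 replicate 1 and ZT10 replicate 1 form the low and high ends of the first 2 panels. In the third, ZT02 replicate 1 lies towards low Hamp and high Tfrc. ZT02 replicate 2 lies towards high Hamp and low Tfrc, where ZT06 replicate 2 lies farther out.

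The rest of the route was read from lists of related genes. Among all 17142 tested genes 4.8% were called higher and 4.89% lower at night, and 8357 were below 0 for night minus day. Whether a list as a whole departs from these shares was not tested. Of 5 other BMP-SMAD target genes, all were below 0 for night minus day (median -0.49) and 2 were called lower at night. Atoh8, a transcription factor that acts on hepcidin, fell by 1.05 ± 0.15 (log2, SE; edgeR adjusted p = 0.0037), from 18.9 ± 4.32 CPM by day to 9.23 ± 2.29 CPM at night (SD). Its night libraries (5.79 to 12.1 CPM) did not overlap its day libraries (13.6 to 24.7 CPM). Id2, a relative of Id1, fell by 0.52 ± 0.07 (adjusted p = 0.0037), from 148 ± 39.8 to 101 ± 12.1 CPM. Both calls held in all 20 alternatives. Id3 (-0.07 ± 0.17), Id4 (-0.49 ± 0.20) and Bambi (-0.14 ± 0.16) were not called; these 3 complete the list and were picked outside the naming rule.

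Of 5 SMAD transducers, Smad4, the partner that all receptor SMADs share, was called and lower at night, by 0.35 ± 0.07 (log2, SE; edgeR adjusted p = 0.0144). The call was lost without ZT18 replicate 2 (0.0546). The receptor SMADs Smad1 and Smad5, which carry the BMP signal with Smad9, stood at -0.13 ± 0.08 and -0.09 ± 0.05 and were not called; both were picked for their role, outside the naming rule. The median of the 5 was -0.09, and 4.89% of all tested genes were called lower at night.

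Of 11 tested BMP ligands and relatives, 1 was higher and 1 lower at night (median -0.01), against 4.8% and 4.89% of all tested genes. Inhbe, an activin subunit made by hepatocytes, rose by 0.90 ± 0.15 (log2, SE; edgeR adjusted p = 0.0070), from 21.9 ± 7.06 to 40.2 ± 10.9 CPM. Bmp2, the endothelial ligand that acts beside BMP6 on hepcidin, fell by 0.35 ± 0.08 (adjusted p = 0.0240), a call lost in 8 of 20 alternatives with adjusted p up to 0.0982. Inhbb, another activin subunit, was called for a 24 h rhythm (adjusted p = 0.0177, lost in 1 of 20 alternatives) and not for night against day.

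Of 11 tested BMP receptors and coreceptors, 1 was called, Acvrl1, an endothelial receptor, higher at night by 0.39 ± 0.11 (log2, SE; edgeR adjusted p = 0.0439). That call was lost in 15 of 20 alternatives, and 4.8% of all tested genes were called higher at night. The coreceptor hemojuvelin, listed as Hfe2, stood at 0.11 ± 0.08, and the iron sensors Hfe and Tfr2 at -0.01 ± 0.08 and -0.05 ± 0.07. The median of the receptors was -0.05. These 3 genes were picked for their role and not by their change.

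Of 13 tested BMP-SMAD inhibitors, 2 were lower and 1 higher at night (median 0.10), against 4.89% and 4.8% of all tested genes. Smurf1, a ubiquitin ligase for SMADs, fell by 0.33 ± 0.05 (log2, SE; edgeR adjusted p = 0.0058) and held in all 20 alternatives. Fkbp1a, which keeps BMP receptors silent, stood at 0.26 ± 0.07 (adjusted p = 0.0463, lost in 15 of 20). Ski was called for a 24 h rhythm (adjusted p = 0.0206, lost in 3 of 20) and Skil for any time difference (0.0209, lost in 6 of 20). Both encode corepressors of SMADs.

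Of 21 tested genes of iron uptake, storage and export, 1 was lower and 1 higher at night (median -0.01). Over all tested genes 4.89% were lower and 4.8% higher, so these counts are near that background. A 24 h rhythm was called for 5 of the 21, against 12% of all tested genes. Ireb2, which encodes iron regulatory protein 2, a binder of the stem-loops of Slc40a1 and Tfrc shown above, fell by 0.48 ± 0.06 (log2, SE; edgeR adjusted p = 0.0025). Its night libraries (24.1 to 34.5 CPM) did not overlap its day libraries (38.7 to 44.5 CPM). Aco1, the gene of iron regulatory protein 1, stood at 0.05 ± 0.08 (adjusted p = 0.733). Steap4, a metalloreductase, rose by 0.48 ± 0.08 (adjusted p = 0.0060), and both calls held in all 20 alternatives. Steap3, Pcbp1 and Slc25a28 were called for a 24 h rhythm and not for night against day. The rhythm call of Steap3 held in all 20 alternatives, that of Pcbp1 was lost in 2, and that of Slc25a28 in 9, with adjusted p up to 0.123. The ferritin chains Fth1 (-0.09 ± 0.07) and Ftl1 (-0.13 ± 0.13) were not called. Aco1, Fth1, Ftl1 and Slc25a28 were picked outside the naming rule, after their values were seen.

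Of 9 tested genes of heme and hemoglobin scavenging, none was called for night against day by edgeR (median -0.05). None had an unadjusted p under 0.05 in that test, against 4563 of all 17142 tested genes. Over the alternatives at most 1 was called. Lcn2, an iron-siderophore carrier, was called for any time difference (edgeR adjusted p = 0.0318), a call lost in 9 of 20 alternatives, limma-voom among them, with adjusted p up to 0.129.

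In the interleukin 6 arm, 3 of 14 tested genes were higher and 2 lower at night (median 0.00), against 4.8% and 4.89% of all tested genes. The acute-phase genes Saa1, Saa2 and Orm1 rose by 1.78 ± 0.31, 1.44 ± 0.37 and 0.57 ± 0.15 (log2, SE), with edgeR adjusted p of 0.0077, 0.0337 and 0.0341. The calls of Saa2 and Orm1 were each lost in 9 of 20 alternatives, and that of Saa1 held in all. Saa1 was highest at ZT22, at 155 and 316 CPM in replicates 1 and 2, against 5.76 to 38.0 CPM elsewhere. Hamp in the same 2 libraries was 42.2 and 114 CPM, lower in the library with less Saa1. The relation of Saa1 to Hamp was not tested. Il6ra, the interleukin 6 receptor, fell by 0.49 ± 0.07 (adjusted p = 0.0037) in all 20 alternatives, and Jak2 stood at -0.22 ± 0.06 (adjusted p = 0.0457, lost in 15 of 20). Socs3 (0.46 ± 0.27) and Stat3 (0.01 ± 0.11) were not called. Jak2, Socs3 and Stat3 were named after their values were seen.

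Markers of other liver cells gave no call for night against day in sinusoidal endothelial, Kupffer or erythroid cells by edgeR. An unadjusted p under 0.05 was found for 3 of 12, 0 of 12 and 3 of 7 tested markers. Over all 17142 tested genes 4563 had such a p. Summed Kupffer markers lay between 342 and 557 CPM at night and 407 and 626 CPM by day. Summed hepatocyte markers lay between 76852 and 85943 CPM at night and between 82787 and 111776 CPM by day, with ZT02 replicate 1 the highest. Alb alone lay between 57723 and 89787 CPM and made up most of that sum. With each marker's log2 CPM centred and weighted equally, ZT10 replicate 1 was highest (0.202), against 0.128 in ZT02 replicate 1. Among all 17142 tested genes 8357 were below 0 for night minus day and 4.89% were called lower at night. All 10 lymphocyte markers were below 0 and 1 was called lower, Cd8a (edgeR adjusted p = 0.0111), at no more than 0.620 CPM in any library. Cd8a was named after its values were seen. Their part in the lower night levels of Smad9 and Smad7 was not tested.

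For each gene the non-member genes with the most alike course over the 12 libraries were taken from 9876 genes whose mean reached 5 CPM, by Pearson's r on log2 CPM, as a description. Smad9 was most like Bag4 (0.964), Nf1 (0.956) and Med13l (0.952). Slc40a1 was most like Sfr1 (0.978), Slc7a6os (0.932) and Yy1 (0.928). Hamp was most like Maf (0.921), Rsc1a1 (0.916) and Usp19 (0.898), all closer to it than Id1. Smad7 was like Lrp4 (0.928) and Brpf3 (0.902), and Id1 most like Tenc1 (0.915), Wdtc1 (0.904) and Zfp574 (0.897).

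The other 5 genes had partners of a similar likeness. Tmprss6 was most like Oaz2 (0.927), Rnh1 (0.879) and Adcy9 (0.824), although it hardly varied. Bmp6 was most like Cyp4f13 (0.921), Trio (0.828) and Dhrs4 (0.811), and Tfrc like Leo1 (0.897), Dnajb2 (0.848) and Cyp4a12a (0.846). Hamp2 was most like Ldlrad3 (0.879), Nudcd3 (0.851) and Card6 (0.844), and Smad6 like Shroom3 (0.856), Lima1 (0.831) and Ahdc1 (0.794). With so many genes compared, high values of r are found for any gene, and no shared control is read from them.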

How the data were processed

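RNA was prepared with a stranded kit after removal of ribosomal RNA, per the labels' protocols. The table the authors deposited gives raw exon counts, unnormalized. The submitters' processing notes name STAR 2.4.0i and mm10; the sources used here name neither a counting tool nor an annotation. Positions come from GENCODE M21 on GRCm38, matched by identifier for 22054 of 22618 genes. Groups came from the labels.

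Counts were fitted in R 4.3.3 with edgeR 4.0.16 (TMM; filterByExpr by time point, minimum count 10, minimum total 15; quasi-likelihood tests over all 17142 genes). A 6-group fit gave any time difference and night minus day, and a cosine fit gave the 24 h rhythm. Intervals of ranges and SEs of peaks come from least-squares fits to log2 CPM. Scripts were tested on simulated data. In the smallest library a count of 0 would allow up to 0.0864 CPM (3 counts); such limits cover counting error only, and PCR copies of a molecule are not independent. No time point's 2 libraries were the same library (chi-square over degrees of freedom 16.8 to 100.5). Alternatives were DESeq2 1.42.0, RLE factors, library totals alone, limma-voom (limma 3.58.1), no filter, a replicate block, and libraries left out.

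The 10 genes and all lists were chosen with earlier results of these data known. Genes named are all 10; of each list up to 4 called genes with the smallest adjusted p over the 3 tests; and the 3 most alike genes of each of the 10. The text marks list genes picked in another way. Some genes of these lists are not reported here. Lists of stellate cell, cholangiocyte and pancreatic acinar markers had no gene called for night against day by edgeR. An unadjusted p under 0.05 was found for 1 of 9, 1 of 6 and 0 of 2 tested. Over all 17142 tested genes 4563 had such a p. Acinar markers summed to 20.9 CPM in ZT14 replicate 2 and at most 4.46 CPM elsewhere.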

Additional observations from a re-analysis of the deposited data

Results flagged for a closer look

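Each gene's 6 night and 6 day libraries were searched, on CPM and not on log2 CPM, for a library far from the rest, 20 sets in all. The cut-off would flag about 1 in 20 sets of 6 draws from 1 normal distribution. The libraries of a set come from different time points, so that rate need not hold here. The flags may depend on the scale. A library was set apart when its gap to the nearest other, divided by the whole range, passed 0.625. Hamp2 in ZT14 replicate 1 stood at 28.7 CPM, against 8.48 CPM in the next highest night library (gap over range 0.779). Tfrc in ZT02 replicate 1 stood at 109 CPM, against 51.1 CPM in the next highest day library (0.633). In that library Hamp was at 60.1 CPM, the lowest of the day libraries, and Hamp2 at 17.6 CPM, the highest of the day libraries.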

How the results depend on the processing

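Smad9 kept its night minus day call in all 20 alternatives, and no value of the 10 genes that passed its test changed sign. The number of the 10 genes called depended on the analysis. For the 24 h rhythm DESeq2 called 3416 genes, 3 of the 10 among them; for any time difference it called 2532 and 4. Library totals alone left 1 of the 10 called for night minus day, and no filter on low counts gave 2 for any time difference. The main fits held no replicate block. The 15 correlations of replicate differences between times lay between -0.181 and 0.269, the highest for ZT02 with ZT06. Low values at most pairs of times cannot exclude a pairing of replicates at some of them. With the replicate block the 24 h count was 1896 (2 of the 10, Hamp gained with edgeR adjusted p = 0.0486), any time difference 774 (1 of the 10, Smad9 with 0.0330) and night minus day 1609 (2 of the 10). Without ZT02 replicate 1 and ZT06 replicate 2 the counts were 568 and 0 of the 10 for the rhythm, 1 of the 10 for any time difference, and 1107 and 1 of the 10 for night minus day. Without ZT02 replicate 2 and ZT06 replicate 1 they were 1276 and 4 of the 10 for the rhythm and 865 for night minus day. Leaving out 1 library in turn gave 1201 to 2225 genes for the rhythm (0 to 2 of the 10), 174 to 897 for any time difference (0 to 3 of the 10), and 611 to 1818 for night minus day (1 to 3 of the 10). It gave 0 to 3 called correlations in place of 2. Fewer libraries were fitted in these last analyses; otherwise the cause was not tested. With 2 libraries a time point, and 60 to 384 counts for Id1 and 99 to 1068 for Hamp2, differences of the size seen between replicates at ZT02 could not be told from differences between times.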
